A study of Mus musculus with 4 samples.

Results

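Tnfrsf18, Gm16008 and Tnfrsf4 are neighbouring genes on mouse chromosome 4 and 3 of the 50600 genes counted in T-helper 2 cells. Tnfrsf18 encodes GITR and Tnfrsf4 encodes OX40, receptors of the TNF receptor superfamily on T cells, and Gm16008 is a noncoding gene annotated on the other strand across Tnfrsf18. The genes were chosen by position, with their counts in all libraries already known, so their levels are described here and not tested. The 4 libraries are total RNA-seq of primary T-helper 2 cells of strain C57BL/6NJ, grown out of CD4 T cells in a culture protocol, with no second condition. T-helper 2 cells make interleukin 4 and act in allergy and immunity to worms. The labels call them biological replicates 1 to 4 under a single donor identifier without saying if it stands for 1 animal, so p-values and SDs measure the spread between these libraries, which may be technical. Neither age nor stage is known, per the labels, sex was left uncollected, and the table headers name 16 hours without saying from which event. The cells were cultured in bulk, so fewer cells with a transcript and less of it per cell cannot be told apart.

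As background, receptors of this superfamily bind trimeric ligands on other cells and carry short cytoplasmic tails that recruit TRAF adaptor proteins, which switch on NF-kB and favour survival and division. OX40 is induced when a T cell is activated through its antigen receptor, meets OX40 ligand (Tnfsf4) on antigen-presenting cells and is known for sustaining T-helper 2 responses and memory. GITR meets GITR ligand (Tnfsf18), is present on regulatory T cells at rest and rises on other CD4 T cells after activation. No function is known here for Gm16008.

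The annotation fixes what can be counted for each gene. Tnfrsf4 (ENSMUSG00000029075.6, mm10 chromosome 4, 156013843 to 156016612, plus strand) has 7 exons with 1365 bases in the deposited tables. Its exons face no exon of a gene on the minus strand, and its start lies 232 bases past the end of Sdf4. Tnfrsf18 (ENSMUSG00000041954.18, 156026164 to 156028895, plus strand) begins 9551 bases past the end of Tnfrsf4 and has 3 merged exons with 1524 bases. Gm16008 (ENSMUSG00000087381.8, 156022008 to 156031643, minus strand) has 7 exons with 1324 bases and spans Tnfrsf18 on both sides. Exons of Gm16008 and Tnfrsf18 face each other over 414 bases, which are 31.3% of the Gm16008 exon bases and 27.2% of those of Tnfrsf18. The larger stretch, 334 bases from 156026297 to 156026630, holds 90 bases of 5′ UTR and 151 coding bases of a Tnfrsf18 coding transcript in GENCODE release M21. The smaller one is a whole Gm16008 exon of 80 bases, 156028475 to 156028554, and holds 60 coding bases of that transcript. Gm16008 shares a further 305 bases, its last exon, with Gm37090 on the same strand, and the headers show no option to count read pairs that fall in exons of more than 1 gene. The remaining 605 bases of Gm16008 face no exon and are shared with no gene.

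**Figure D1:**
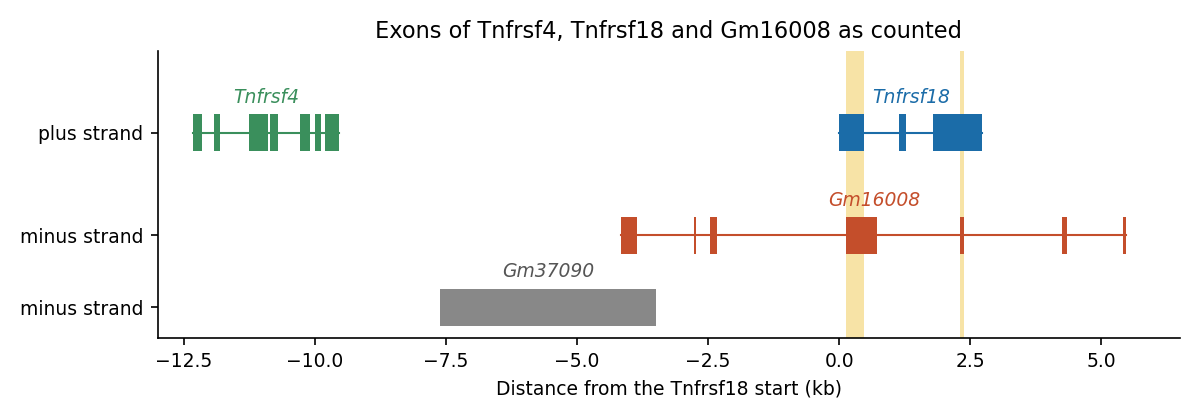
Exons (boxes) of Tnfrsf4, Tnfrsf18, Gm16008 and Gm37090 as listed in the deposited tables, by strand, against distance in kb from the start of Tnfrsf18. Shaded bands mark the 414 bases where exons of Gm16008 and Tnfrsf18 face each other; Tnfrsf4 has no such band.

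The sequences at these overlaps show where a count for Tnfrsf18 and a count for Gm16008 come from the same bases read on different strands. The first line is the RefSeq promoter window of Tnfrsf18 (GRCm38.p6, plus strand, chr4:156026072-156026371, 250 bases before to 50 after the RefSeq start), with the 75 bases under a Gm16008 exon in capitals. The second is the first coding stretch of Tnfrsf18 (GENCODE M21, mm10, plus strand, chr4:156026387-156026537), all 151 bases of which face that same Gm16008 exon, with the start codon in capitals. The third is the Gm16008 exon inside Tnfrsf18 (GENCODE M21, mm10, minus strand, chr4:156028475-156028554), with the 60 bases that face Tnfrsf18 coding sequence in capitals.
Tnfrsf18 promoter window: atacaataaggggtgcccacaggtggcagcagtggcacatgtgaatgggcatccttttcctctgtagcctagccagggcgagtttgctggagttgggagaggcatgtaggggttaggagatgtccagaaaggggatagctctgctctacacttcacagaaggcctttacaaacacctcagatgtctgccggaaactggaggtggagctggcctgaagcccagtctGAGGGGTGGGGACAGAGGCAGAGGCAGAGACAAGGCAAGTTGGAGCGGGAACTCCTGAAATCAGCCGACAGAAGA
Tnfrsf18 first coding stretch: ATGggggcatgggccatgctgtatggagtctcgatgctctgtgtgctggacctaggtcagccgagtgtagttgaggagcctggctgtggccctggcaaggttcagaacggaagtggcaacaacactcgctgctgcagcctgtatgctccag
Gm16008 exon inside Tnfrsf18: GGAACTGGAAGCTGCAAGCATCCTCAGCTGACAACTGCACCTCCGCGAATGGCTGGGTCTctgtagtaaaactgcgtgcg

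Windows at 2 other starts are shown because no Tnfrsf18 exon lies in them. The Tnfrsf4 window (GRCm38.p6, plus strand, chr4:156013445-156013744) is built on a RefSeq start 148 bases before the GENCODE one. No base of it lies in a counted Tnfrsf4 exon, and none is in capitals. The last counted exon of Sdf4, on the same strand, ends inside this window, at 156013610, and is not marked. The window at the far end of Gm16008 (GRCm38.p6, minus strand, chr4:156031613-156031912) is the start of the transcripts that cross Tnfrsf18, which are 2 of its 3 in release M21, and its 31 exon bases are in capitals.
Tnfrsf4 promoter window: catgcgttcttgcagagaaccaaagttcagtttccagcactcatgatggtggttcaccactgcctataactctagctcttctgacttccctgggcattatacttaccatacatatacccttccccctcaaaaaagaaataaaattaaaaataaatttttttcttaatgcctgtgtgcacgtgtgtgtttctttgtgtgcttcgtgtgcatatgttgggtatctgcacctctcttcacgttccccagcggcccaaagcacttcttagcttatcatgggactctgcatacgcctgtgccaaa
Gm16008 promoter window: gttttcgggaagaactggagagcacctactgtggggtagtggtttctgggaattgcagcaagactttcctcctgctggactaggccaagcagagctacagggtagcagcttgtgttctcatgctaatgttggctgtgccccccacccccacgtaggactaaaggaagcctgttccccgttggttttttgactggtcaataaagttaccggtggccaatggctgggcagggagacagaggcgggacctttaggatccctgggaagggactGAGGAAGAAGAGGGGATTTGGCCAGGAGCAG

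Base composition differed between the receptor windows, at 55.3% G and C for Tnfrsf18 and 43.7% for Tnfrsf4, against a median of 52.7% over 32851 RefSeq windows. They held 4 and 6 CpG, against a median of 7. On both strands, 5 motifs were searched. The STAT form TTCNNNGAA, present in 8.30% of all windows, occurred 1 time in the Tnfrsf18 window, at position -99 from the RefSeq start, and 1 time in the window at the far end of Gm16008, at position -207. The RefSeq start of Tnfrsf18 (156026322) lies 158 bases past the GENCODE one, so the match there lies within the first counted exon. The letters of the kB form (GGG, 2 bases of any kind, TT, 1 of any kind, CC; 4.79% of all windows), the AP-1 form TGANTCA (7.81%), the GATA form AGATAA (11.2%) and the TATA form TATAAA (13.6%) were not in the windows of the 3 genes, among them a further Gm16008 window not printed here (chr4:156023775-156024074, minus strand), which holds no STAT form either. A match or its absence in a window says nothing of whether a factor binds.

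Library totals ran from 1688658 to 2222583 counts, so that 3 counts, the limit allowed by a count of 0, came to 1.35 to 1.78 CPM, counts scaled to the library total. Genes whose exons face an exon on the other strand made up 16.2% of the list and held 90.1% to 93.3% of the counts of a library. Unopposed genes, which no annotated gene overlaps on the other strand, were 70.1% of the list and held 5.10% (replicate 3) to 8.09% (replicate 4). Of the counts in the 13 mitochondrial mRNAs, 87.2% to 92.0% lay in mt-Nd6, which is encoded on the strand opposite to the others. Read pairs were counted with strand option 1, and the labels do not say which strand the library kit keeps. Whether this setting is opposite to the kit's was not tested. Every level below, for the receptors, their family, ligands and adaptors as for Gm16008, is thus a level of counts assigned to the annotated strand and may not be that of the gene's own transcript. All 8 T cell markers had counts in every library (summed level 53.5 to 118 TPM, counts per exon base scaled to the library), and so had 4 of 7 T-helper 2 markers (71.5 to 96.6 TPM), with Il5, Il13 and Il1rl1 at 0. Most of this sum lay in Ptgdr2, at 57.3 TPM, which faces Ccdc86 over 1031 bases, and Gata3, with 77 counts, faces Gm13256, with 3900. Without a facing exon the highest T-helper 2 marker was at 10.8 TPM. Summed markers reached 1.73 to 6.44 TPM for CD8 T and natural killer cells (4 of 5 genes at 0 throughout), 10.3 to 16.5 TPM for B cells (2 of 4 at 0, Ms4a1 among them), and at most 0.565 TPM for mast cells and neutrophils (4 of 5 at 0). Those of macrophages and dendritic cells reached 148 to 176 TPM, with 4 of 7 genes at 0, Adgre1 and Lyz2 included. Most of this sum lay in Csf1r, at 155 ± 14.5 TPM (SD, n = 4). Csf1r had 3829 counts in all and faces Hmgxb3, with 29, over 871 bases. Without a facing exon the highest marker in this list was at 6.60 TPM.

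Both receptor genes had few counts assigned to their annotated strand. Tnfrsf4 had 39, 19, 17 and 26 counts in replicates 1, 2, 3 and 4. In the same order these are 24.5 TPM (95% exact Poisson interval 17.4 to 33.5), 12.1 TPM (7.27 to 18.9), 8.33 TPM (4.86 to 13.3) and 14.9 TPM (9.70 to 21.8), where TPM is computed from the counts and the deposited lengths. Replicate 1 was highest and replicate 3 lowest, 2.94 times apart, and the intervals of these libraries do not overlap, while those of replicates 2, 3 and 4 do. The mean was 14.9 ± 6.90 TPM (SD, n = 4). Its coefficient of variation was 46.2%, where counting alone would give 19.9% at a mean of 25.3 counts. Intervals here and below cover counting error only.

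Tnfrsf18 had 23, 23, 15 and 19 counts in replicates 1 to 4. Its levels were 12.9 TPM (95% exact Poisson interval 8.20 to 19.4), 13.1 TPM (8.30 to 19.7), 6.59 TPM (3.69 to 10.9) and 9.72 TPM (5.85 to 15.2). Replicate 3 was lowest here too, but the intervals of all 4 libraries overlap. The mean was 10.6 ± 3.08 TPM (SD, n = 4), with a coefficient of variation of 29.1% against 22.4% from counting alone. Replicate 3 was also lowest in its share for unopposed genes, and the part of that share in the low values was not tested.

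Per kilobase, Tnfrsf4 and Tnfrsf18 lay close to each other. Tnfrsf4 was above Tnfrsf18 in 3 of 4 libraries, with ratios of 1.89, 0.922, 1.27 and 1.53 in replicates 1 to 4. The difference on the log2(TPM + 1) scale was 0.41 ± 0.42 (SD, n = 4), so it was no larger than its spread between libraries. Among all genes with a count in any library, Tnfrsf4 stood at percentile 83.4 by mean TPM and Tnfrsf18 at percentile 80.4.

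Gm16008 held most counts of the locus. It had 3872, 3703, 4492 and 3666 counts in replicates 1 to 4, or 15733 in all against 80 for Tnfrsf18. Its levels were 2505 TPM (95% exact Poisson interval 2427 to 2585), 2428 TPM (2350 to 2507), 2270 TPM (2205 to 2338) and 2159 TPM (2090 to 2230), in the same order. Replicates 1 and 2 overlap in their intervals, as do replicates 3 and 4, and the former pair lies above the latter at this scaling. The mean was 2341 ± 156 TPM (SD, n = 4), which placed Gm16008 at rank 69 of all genes listed. Of 10979 long noncoding genes in release M21 that the tables list, it was at rank 42 by mean TPM and at rank 26 by counts. Its coefficient of variation was 6.65%, below those of both receptors, where counting alone would give 1.59%.

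**Figure D2:**
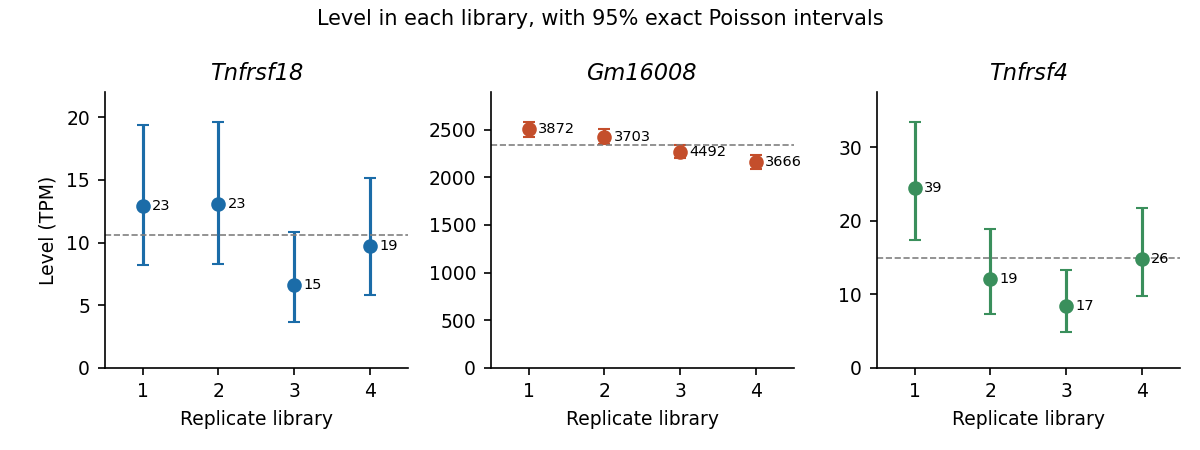
Level in TPM (y axis, own scale per gene, starting at 0) of Tnfrsf18, Gm16008 and Tnfrsf4 in replicate libraries 1 to 4, with 95% exact Poisson intervals, the raw count beside each point and the mean as a dashed line. Tnfrsf4 runs from 8.33 to 24.5 TPM and Tnfrsf18 from 6.59 to 13.1 TPM, each lowest in replicate 3, while Gm16008 stays between 2159 and 2505 TPM.

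Within each library, Gm16008 took nearly all counts of the overlapping pair. Its share of the counts of Gm16008 and Tnfrsf18 together was 99.4% (95% Wilson interval 99.1 to 99.6), 99.4% (99.1 to 99.6), 99.7% (99.5 to 99.8) and 99.5% (99.2 to 99.7) for replicates 1 to 4. The intervals of all 4 libraries overlap. Per kilobase the ratio of Gm16008 to Tnfrsf18 was 194, 185, 345 and 222 in replicates 1 to 4, and it was highest in the library where Tnfrsf18 was lowest. On the log2(TPM + 1) scale the difference was 7.70 ± 0.36 (SD, n = 4). Counts per gene do not say which exons the read pairs fell in, so counts from the 414 shared bases and from the rest of Gm16008 cannot be told apart, nor can a Gm16008 transcript and a Tnfrsf18 transcript read on the other strand.

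A noncoding gene that outnumbers its coding partner was common in these libraries. There were 1956 pairs of a protein-coding gene and a long noncoding gene whose exons face each other over 100 bases or more, and 1570 of them had a count. The pairs are not independent, since they hold 1479 coding and 1460 noncoding genes. The noncoding gene had more counts than the coding one in 75.8% of the 1570 pairs, and the median of its share was 95.5%, with quartiles at 54.9% and 99.0%. With 99.5% over the pooled libraries, Gm16008 and Tnfrsf18 had a share above 82.7% of pairs, and 271 pairs had a higher one. In single libraries this place ran from 73.5% of pairs in replicate 2 to 81.9% in replicate 4. The pair stood further out by abundance, at rank 29 of the 1570 by counts, and Gm16008 was at rank 39 of the 1460 noncoding genes by mean TPM. Among the 589 pairs with 1000 counts or more, the median share was 98.1% and 91 pairs lay above Gm16008 and Tnfrsf18.

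**Figure D3:**
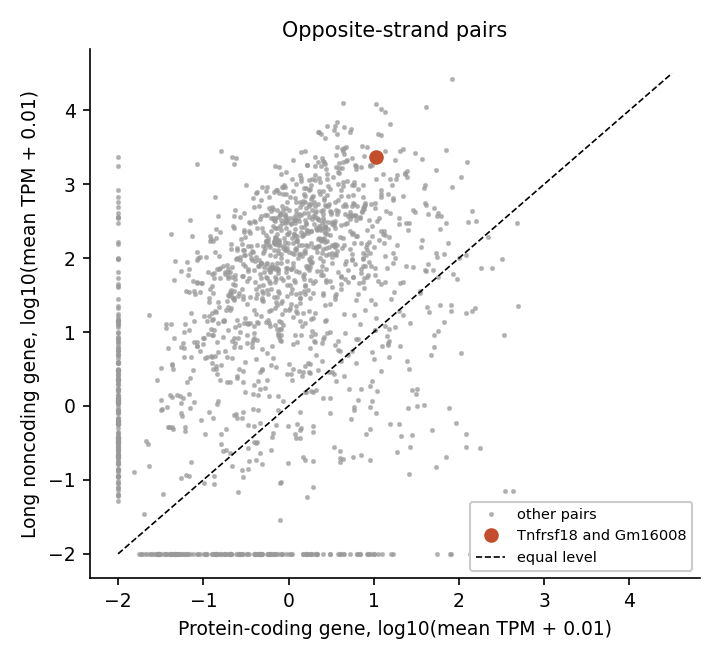
Mean level over 4 libraries of the long noncoding gene (y axis) against the protein-coding gene (x axis) of 1570 opposite-strand pairs, both as log10(mean TPM + 0.01). The Tnfrsf18 and Gm16008 pair, at 10.6 and 2341 TPM, lies above the dashed line of equal level, as do most pairs.

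Other genes around the locus had few counts assigned to their annotated strands. Counts on the other strand of their exons are not given. In the window reaching 100 kb to either side of the 3 genes, 13 other genes are listed, none with an exon facing another gene, and they held 607 counts in all. Gm16008 alone held 95.2% of the 16521 counts of the window. Gm37090, an entry of the minus strand with no assigned product between Tnfrsf4 and Tnfrsf18 (156018556 to 156022660), had 70, 79, 89 and 57 counts and was at 14.2 ± 2.44 TPM (SD, n = 4). It was thus at a level like that of Tnfrsf4, though on the other strand. Sdf4, a calcium-binding protein gene of the secretory pathway just before Tnfrsf4, had 28, 36, 26 and 46 counts and was at 4.44 ± 1.33 TPM (SD, n = 4). B3galt6, a galactosyltransferase gene next to it on the minus strand, had 34, 9, 50 and 25 counts and was at 7.06 ± 3.58 TPM (SD, n = 4). Ube2j2 (a ubiquitin-conjugating enzyme gene), Ttll10 and 9430015G10Rik had 21, 20 and 14 counts in all, and C1qtnf12 and Rnf223 had 2 and 1. The small nuclear RNA entry Gm25982, Gm13648 and the microRNA genes Mir429, Mir200a and Mir200b had none. No other gene of the window came near the level of Gm16008.

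The between-library pattern of the receptors changed little with the genes used for scaling. Scaled over all genes, over protein-coding nuclear genes, over all genes but the ribosomal RNA gene CT010467.1, or over unopposed genes, Tnfrsf18 was lowest in replicate 3 and highest in replicate 2, and Tnfrsf4 lowest in replicate 3 and highest in replicate 1. The ratio of highest to lowest library ran from 1.83 to 1.99 for Tnfrsf18. Gm16008 was lowest in replicate 4 under each scaling, but its highest library was replicate 1 under the first 3 and replicate 3 when scaled over unopposed genes. Over protein-coding nuclear genes it was at 10398, 10378, 10337 and 8721 TPM in replicates 1 to 4, so that replicate 3 lay with replicates 1 and 2 and not with replicate 4. Over unopposed genes its coefficient of variation was 12.4% in place of 6.65%.

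**Figure D4:**
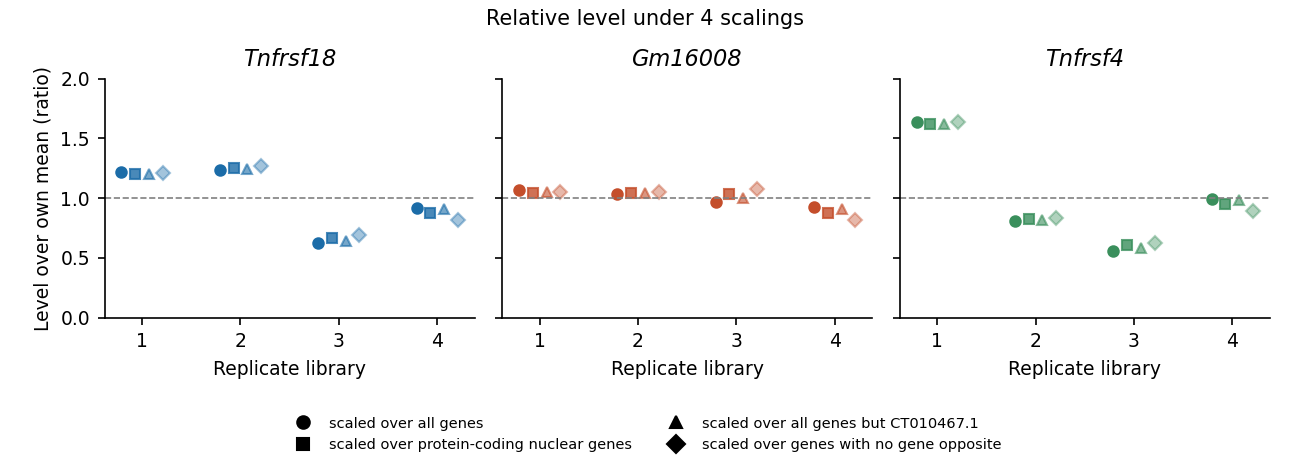
Level of each gene in replicate libraries 1 to 4 divided by its own mean over the libraries (ratio, dashed line at 1), with TPM scaled over 4 sets of genes shown by symbol. Replicate 3 is lowest for Tnfrsf18 and Tnfrsf4 under all 4 scalings, whereas Gm16008 stays within 0.815 to 1.07 of its mean.

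Variation between libraries was tested across all genes with edgeR's quasi-likelihood fit. Of the 3 genes, 3 passed the filter on low counts and 0 were called at an adjusted p under 0.05, against 0.447% of the 4918 genes tested. At an unadjusted p under 0.05 there were also 0 of 3, against 281 of 4918, and limma called 0 of 3, against 1 of 4918. These calls rest on the counts known when the genes were chosen, and nothing is read from them.

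By the measure fixed for likeness, the mean absolute difference over the 4 libraries of log2(CPM + 1) centred on each gene's mean, 6443 genes with a mean count of 10 or more were compared. Nearest to Tnfrsf18 were Pcna, the sliding clamp gene of DNA replication, with 79, 80, 54 and 67 counts at a difference of 0.0080, Psmd13, which faces Sirt3, at 0.032 and Inpp4b at 0.040. Nearest to Gm16008 were Gm44775 at 0.0087, Gm20490 at 0.0094 and B3gntl1 at 0.010, which face Pex11g, Rbm38 and Tbcd. Nearest to Tnfrsf4 were Eif1ax, a translation initiation factor gene, with 37, 17, 16 and 23 counts at 0.040, Tmcc1, which faces Gm8203 and Gm20404, at 0.047 and Vps4b at 0.053. Of the 6443 genes compared, 56.3% have an exon facing another gene. Tnfrsf18 and Gm16008 differed by 0.26, Tnfrsf18 and Tnfrsf4 by 0.31 and Gm16008 and Tnfrsf4 by 0.43, where the median over all compared genes was 0.36 from Tnfrsf18, 0.26 from Gm16008 and 0.43 from Tnfrsf4. These are descriptions over 4 libraries, with no test. The receptor patterns rest on 15 to 39 counts a library, and the measure makes no allowance for counting error.

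Among the 28 receptor genes of the superfamily examined, Cd27, Tnfrsf4 and Tnfrsf18 had the highest levels per kilobase. Cd27, a costimulatory receptor of naive and early activated T cells, had 63, 55, 73 and 77 counts and was at 22.6 ± 2.42 TPM (SD, n = 4). It was above Tnfrsf18 in 4 of 4 libraries and above Tnfrsf4 in 3 of 4, with Tnfrsf4 higher in replicate 1. The range of Tnfrsf4 over libraries, 8.33 to 24.5 TPM, overlaps that of Tnfrsf18, 6.59 to 13.1 TPM, and that of Cd27, 20.5 to 25.8 TPM, so these neighbours in the order overlap except Cd27 and Tnfrsf18. Next came Tnfrsf12a, the TWEAK receptor gene, at 3.14 ± 1.10 TPM, Tnfrsf10b, a death receptor gene, at 1.78 ± 0.661 TPM and Tnfrsf9, the gene of 4-1BB, another costimulatory receptor, at 1.72 ± 0.749 TPM (SD, n = 4). The lowest library of Tnfrsf18, at 6.59 TPM, was above the highest of Tnfrsf12a, at 4.51 TPM. Of the 28, 8 had no count in any library, Tnfrsf8 and Cd40 among them, and 11 had fewer than 10 counts in all. Tnfrsf4 and Tnfrsf18 held 30.7% of the 589 counts of these receptors. Besides Tnfrsf18, only Tnfrsf23 and Tnfrsf26 among them have an exon facing another gene, in both cases E230032D23Rik, which had 17 counts over the 4 libraries.

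**Figure D5:**
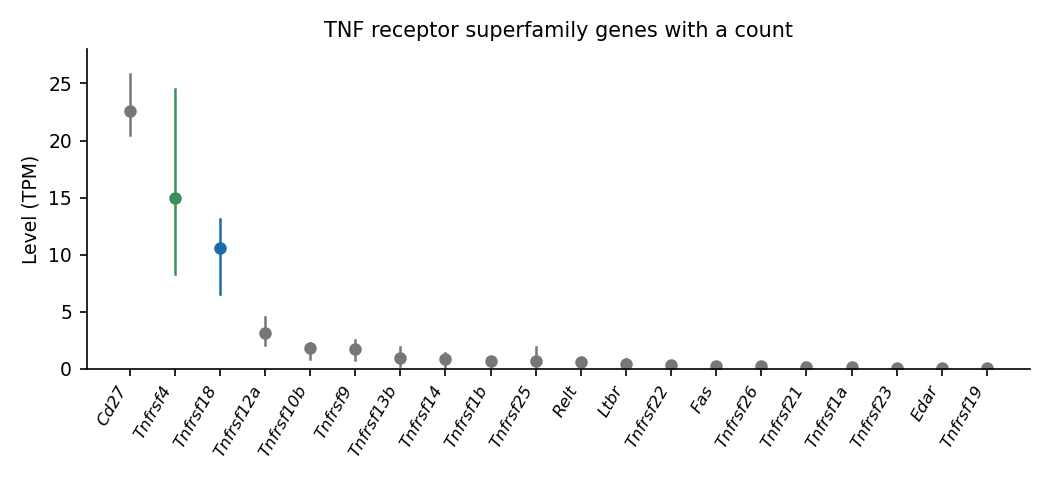
Level in TPM (linear y axis from 0) of the 20 TNF receptor superfamily genes with a count in any library, in order of their mean (points), with lines from the lowest to the highest of 4 libraries. Cd27, Tnfrsf4 and Tnfrsf18 lie above the others, and their lines overlap except those of Cd27 and Tnfrsf18.

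The ligands of both receptors were at or near 0. Tnfsf18, GITR ligand, had no count in any library, which allows up to 1.35 to 1.78 CPM, and Tnfsf4, OX40 ligand, had 1 count, in replicate 4. Among the 18 ligands of the superfamily examined, 9 had counts in all 4 libraries and 4 had none at all. Highest were Cd40lg, the helper T cell ligand of CD40, at 10.2 ± 5.45 TPM with 22, 11, 7 and 23 counts, Tnfsf9, the ligand of 4-1BB, at 9.51 ± 4.52 TPM and Ltb, a subunit of lymphotoxin, at 4.87 ± 0.984 TPM (SD, n = 4). Their median was 0.554 TPM, against 0.183 TPM over the 26 other receptors and 0.128 TPM over all protein-coding genes.

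Adaptors that bind the tails of GITR and OX40 had low counts. Traf1 had 9, 2, 4 and 13 counts, Traf2 had 2, 2, 1 and 5, and Traf3 had 10, 13, 10 and 12, at 0.631 ± 0.456, 0.393 ± 0.266 and 1.22 ± 0.259 TPM (SD, n = 4). Traf5 had 0, 0, 0 and 3 counts, while Gm26879, which faces it over 205 bases, had 722 in all. Of the 12 adaptor genes 10 had counts in all 4 libraries, with Traf4, Ripk1 and Tradd highest at 2.48 ± 0.984, 2.17 ± 0.907 and 1.27 ± 0.761 TPM (SD, n = 4). The median of the 12 was 0.952 TPM, against 0.128 TPM over all protein-coding genes. Of 15 genes of the NF-kB pathway, to which these receptors signal, 14 had counts in every library and their median was 2.12 TPM. Ikbkg, the regulatory subunit of the IkB kinase, was highest at 47.9 ± 3.18 TPM with 418 bases facing G6pdx, followed by Nfkb2, the p100 subunit of the noncanonical branch, at 26.4 ± 1.46 TPM with 4 bases facing Psd (SD, n = 4). Without an opposite exon the highest level in this list was 10.9 TPM.

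Of the 8 genes listed here as costimulatory receptors of other families, only the 3 highest had mean levels near or above that of Tnfrsf4. Cd6, a scavenger receptor family coreceptor, was at 23.8 ± 6.36 TPM, Cd2 at 15.1 ± 4.54 TPM and Cd5 at 13.8 ± 5.80 TPM (SD, n = 4). Of the 8 in this list 7 had counts in every library, and the median was 3.39 TPM. Of 8 inhibitory receptors 6 had counts in every library, Btla highest at 14.9 ± 4.89 TPM, then Lag3 at 7.04 ± 1.94 TPM and Cd160 at 6.21 ± 2.11 TPM (SD, n = 4). Replicate 3, the lowest for Tnfrsf4 and Tnfrsf18, was also the lowest for 6 of the 7 costimulatory and 5 of the 6 inhibitory receptors with counts in every library, for 6 of the 8 T cell markers, and for 44.2% of all 10876 genes with counts in every library (53.1% of the unopposed ones). Of the 87 genes of these 6 lists, 15 passed the filter on low counts and 0 were called as varying between libraries by edgeR, against 0.447% of all tested genes; 2 of the 15 had an unadjusted p under 0.05, as had 281 of all 4918, and limma called 0 of the 15 and 1 of the 4918.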

How the data were processed

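Counts per gene were deposited by the authors as 1 table for each of 4 libraries. They are raw counts of read pairs made with featureCounts 1.4.6-p4 on mm10 and GENCODE M13 with strand option 1 and both ends aligned, per the file headers; the input names carry the tag star2, and the aligner's version is not given. The linked library protocol is named for poly(A) RNA, while the assay title is total RNA-seq, per the labels. Exon lengths and coordinates (1-based) are those of the deposited tables.

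Symbols came from GENCODE M21 for 99.6% of genes. CPM and TPM were computed here. Exons on opposite strands were intersected with bedtools 2.31.1. The variation test was a robust quasi-likelihood fit in edgeR 4.0.16 with an intercept alone, TMM factors and the filterByExpr filter; a gene's quasi-dispersion was set against its trended prior (upper tail, 3 residual degrees of freedom, Benjamini-Hochberg at 0.05), after a run on simulated data, with limma 3.58.1 and size factors of DESeq2 1.42.0 as alternatives, in R 4.3.3; the rest used Python 3.11.15, pandas 2.3.3 and scipy 1.17.1. The genes and lists were chosen with earlier results of these data known. Genes named are the 3 genes, all genes within 100 kb, partners on the other strand, the 3 highest of each list, the 2 ligands, Traf1, Traf2, Traf3 and Traf5, and the 3 nearest in pattern; Tnfrsf9, Tnfrsf23, Tnfrsf26 and single genes at 0 were added after their values were seen.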

Additional observations from a re-analysis of the deposited data

Results flagged for a closer look

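In 8 of 53 values tested for a library far from the other 3, the gap exceeded the 95% critical value of Dixon's test, which chance exceeds in about 1 of 20 groups. Tnfrsf18, Gm16008 and Tnfrsf4 were not among them. In 5 of the 8 a gene had counts in 1 library and none in the other 3, so that the gap equals the whole range by construction. The lowest library stood apart for Trac at 10.02 TPM, for Cd79a at 4.82 TPM and for Csf1r at 133 TPM. The 5 genes with counts in 1 library, of 1 to 3 counts each, were Cpa3 at 0.565 TPM, Tnfsf4 at 0.423 TPM, Traf5 at 0.512 TPM, C1qtnf12 at 1.25 TPM and Rnf223 at 0.295 TPM.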

How the results depend on the processing

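Levels in TPM depended on the genes used for scaling. Over protein-coding nuclear genes, Tnfrsf18, Gm16008 and Tnfrsf4 were at 44.7, 9958 and 62.8 TPM, and over unopposed genes, an alternative chosen after seeing the data, at 166, 37145 and 233 TPM; the smaller sum used for scaling raises all levels. Per exon base without an opposite exon, Tnfrsf18 was at 14.5 and Gm16008 at 3405 TPM, and without the bases shared with Gm37090 Gm16008 was at 3041 TPM, since the length is shorter. The log2 difference of Gm16008 and Tnfrsf18 was 7.25 with a pseudocount of 5. Among pairs with 40 counts or more, the share of pairs below Gm16008 and Tnfrsf18 was 88.0%. Leaving out each library in turn gave 9.75 to 11.9 TPM for Tnfrsf18, 2286 to 2401 for Gm16008, 11.8 to 17.1 for Tnfrsf4, 7.52 to 7.79 for the log2 difference, 99.4% to 99.5% for the Gm16008 share and 80.1% to 82.9% for the place among pairs. Genes varying between libraries numbered 22, but 2 with library totals only, 44 with a mean count of 10 or more, 56 with 1 count in any library, 1 with limma, 9 without the robust prior and 11 to 21 with a library left out (11 without replicate 4); the 3 genes were called under none of these, and why the counts differ was not tested. No paired analysis was possible because the libraries form 1 group. The receptors had few counts: at 15 to 39 a library, differences under about the width of the printed intervals were not detectable. Why these counts are low was not tested.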

Other observations

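Exons facing a gene on the other strand were found for 2 of the 26 other receptors, 1 of 18 ligands and 2 of 12 adaptors. The same held for 3 of 15 NF-kB genes, 0 of 8 costimulatory receptors of other families and 1 of 8 inhibitory receptors. Over all genes listed the share was 16.2%. The genes of these lists are protein-coding, and of all 21764 protein-coding genes 4801 had such an exon. Ikbkg had 474, 462, 592 and 449 counts in replicates 1 to 4, and its partner G6pdx had 251 over all libraries. Ripk1, a kinase of TNF receptor signalling, had 66 counts in all and faces Serpinb6a, with 882, over 241 bases. Nfkb2 had 443 counts and faces Psd, with 4878, over 4 bases. Nfkbib, an inhibitor of NF-kB, was at 13.7 ± 1.84 TPM (SD, n = 4) and faces Ccer2 and Sirt2. Cd160 had 86 counts and faces Pdzk1, with 2521, over 68 bases.

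Of the genes that mark regulatory T cells, Foxp3 had 707, 725, 858 and 748 counts and was at 150 ± 6.18 TPM (SD, n = 4). Foxp3 faces Ccdc22, with 24 counts in all, over 590 bases, and also Gm36995. Il2ra, with no facing exon, was at 7.80 ± 1.63 TPM, Ctla4 was at 1.47 ± 0.947 TPM (SD, n = 4), and Ikzf2 had no count. The highest T cell markers were Trac at 22.4 ± 8.29 TPM, Trbc2 at 15.6 ± 6.74 TPM and Cd4 at 14.3 ± 4.47 TPM (SD, n = 4). The highest T-helper 2 markers were Ptgdr2 at 57.3 ± 9.10 TPM, which faces Ccdc86 over 1031 bases, Ccr4 at 10.8 ± 2.49 TPM and Il4 at 7.43 ± 2.30 TPM (SD, n = 4). Among markers of other cells, Cd79a was at 8.09 ± 2.20 TPM, Ighm at 6.40 ± 3.78 TPM, Cd74 at 6.60 ± 2.71 TPM, Cd68 at 4.54 ± 1.91 TPM and Cd8b1 at 3.92 ± 2.29 TPM (SD, n = 4).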
